A study of Mus musculus with 15 samples.

Results

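The 9 genes described here mark T cells and regulatory T cells: the T cell receptor partners Cd3d, Cd3e and Cd3g, the co-receptors Cd4 and Cd8a, the co-stimulatory receptor Cd28, the adhesion receptor Cd2, the kinase Lck and the transcription factor Foxp3. They were chosen by symbol, and 9 of 9 were found among the 17271 genes of the deposited table. The table covers 15 mouse mammary tumours. All of them are labelled p53-NULL and of the Balbc strain, so the loss of the tumour suppressor p53 is shared by every group, and no wild-type or normal tissue stands beside them. Ages are not given in the labels, and nothing in them says whether samples are separate animals, so p-values measure only the spread between these samples.

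The tumours belonged to 4 models. Model 2151R had 4 samples, of which replicates 1 and 2 carry codes in their titles that no label explains, and replicates 3 and 4 carry NT2 and NT. Model T11 had 1 sample. Model 2225L had 2 samples, replicate 1 titled T-Vivo and replicate 2 titled ROSEN. Model 2208L had 8 samples: replicate 1 is titled ROSEN, replicates 2 to 5 are titled PBS or pbs, and replicates 6 to 8 are titled 3day and nt. Each PBS title also opens with the letters DH and a number of its own, and each 3day nt title with KM and a number of its own. These letters and the subset cannot be told apart. Libraries are numbered in a CP and a ROSEN series. Within the CP series, the numbers of the models and those of the PBS and 3day nt samples run in separate ranges, so model or subset and number range cannot be told apart. The ROSEN series holds 1 sample of 2225L and 1 of 2208L. The labels do not spell out ROSEN, CP, T-Vivo, NT or nt.

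T cells recognise peptides through a receptor that has no signalling tail of its own and signals through the CD3 chains. CD4 and CD8 bind MHC class II and class I and bring the kinase LCK to the receptor, CD28 supplies the second signal for activation, CD2 strengthens contact with other cells, and FOXP3 sets the programme of regulatory T cells, which restrain other T cells. In a tumour, RNA of these genes comes mostly from infiltrating lymphocytes, though natural killer cells also express Lck and Cd2, and some dendritic cells express Cd4 or Cd8a. In bulk samples, fewer cells of a type and less RNA per cell cannot be told apart. Every value below, unless stated otherwise, is a log2 value that the authors centred on a reference level of the same gene. A value of 0 is thus that unstated reference, a difference of 1 is a doubling, and levels cannot be ranked between genes. The scale has no zero level, so whether a marker of mammary tissue or of T cells was absent cannot be read from it.

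The genes lie on 6 mouse chromosomes in the GRCm38 (mm10) build. Cd3g (chr9:44969572-44980431, minus strand), Cd3d (chr9:44981786-44987339, plus strand) and Cd3e (chr9:44998740-45009627, minus strand) form a cluster on chromosome 9. The RefSeq starts of Cd3g and Cd3d are 1355 bases apart and point away from each other, and those of Cd3d and Cd3e are 27825 bases apart. RefSeq places the start of Cd3e at 45009611, inside the GENCODE coordinates given above. Cd4 (chr6:124864692-124888221, minus strand) and Cd8a (chr6:71373427-71379173, plus strand) share chromosome 6, while Cd28 (chr1:60716800-60773359, plus strand), Cd2 (chr3:101275899-101287939, minus strand), Lck (chr4:129548344-129573641, minus strand) and Foxp3 (chrX:7573644-7595245, plus strand) lie apart.

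Promoter windows were matched for 6 of the 9 genes in RefSeq's GRCm38.p6 table; Cd2, Cd4 and Cd28 had no entry. The windows printed here are those of the CD3 cluster, whose genes varied together, and of Lck, which departed from them. Each is the 250 bases before an annotated start, read 5′ to 3′ on the gene's strand, and capitals mark matches to AGGAAG (the core bound by ETS factors) or TGTGGT (a RUNX core) on either strand, so that CTTCCT is AGGAAG on the other strand. The E-box motif CAGCTG was also searched, with no match in these windows. The TATA box motif, searched as TATAAA, had none here either.
Cd3g, chr9:44980432-44980681, minus strand: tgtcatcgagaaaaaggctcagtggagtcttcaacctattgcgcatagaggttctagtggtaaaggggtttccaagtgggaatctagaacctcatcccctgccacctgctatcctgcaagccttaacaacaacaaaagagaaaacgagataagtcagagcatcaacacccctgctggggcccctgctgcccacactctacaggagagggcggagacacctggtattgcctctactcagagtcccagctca
Cd3d, chr9:44981536-44981785, plus strand: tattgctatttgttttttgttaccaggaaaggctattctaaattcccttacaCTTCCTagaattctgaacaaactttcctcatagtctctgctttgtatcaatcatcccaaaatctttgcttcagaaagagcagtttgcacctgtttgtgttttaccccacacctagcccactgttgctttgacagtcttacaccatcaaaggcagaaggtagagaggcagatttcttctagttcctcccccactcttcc
Cd3e, chr9:45009612-45009861, minus strand: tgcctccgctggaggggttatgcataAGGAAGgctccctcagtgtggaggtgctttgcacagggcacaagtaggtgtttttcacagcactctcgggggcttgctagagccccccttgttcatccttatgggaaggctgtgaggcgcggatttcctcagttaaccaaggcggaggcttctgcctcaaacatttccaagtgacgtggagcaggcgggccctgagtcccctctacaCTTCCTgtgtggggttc
Lck downstream start, chr4:129558373-129558622, minus strand: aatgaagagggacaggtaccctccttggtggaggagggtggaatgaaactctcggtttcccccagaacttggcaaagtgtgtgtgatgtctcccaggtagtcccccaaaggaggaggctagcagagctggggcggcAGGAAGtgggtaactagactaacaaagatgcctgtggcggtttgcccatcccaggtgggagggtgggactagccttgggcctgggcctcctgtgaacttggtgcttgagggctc
Lck upstream start, chr4:129573642-129573891, minus strand: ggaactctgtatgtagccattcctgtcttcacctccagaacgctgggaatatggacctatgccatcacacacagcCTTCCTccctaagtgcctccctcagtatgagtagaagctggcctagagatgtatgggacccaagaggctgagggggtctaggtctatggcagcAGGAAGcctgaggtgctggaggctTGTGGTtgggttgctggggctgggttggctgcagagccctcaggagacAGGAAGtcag
The 2 Lck starts are 15269 bases apart. The ETS core occurred 0 times in the Cd3g window, 1 time in that of Cd3d, 2 times in that of Cd3e, 1 time before the downstream and 3 times before the upstream start of Lck, where 1 RUNX core also lay. Among all 32851 windows of this length, 29.5% held the ETS core, 14.0% the RUNX core, 13.0% the E-box and 12.4% the TATA box, and these matches describe letters only, not binding.

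Across the 15 samples, 8 of the 9 genes varied largely together, and Lck did not. With each gene first centred again on its mean over the 15 samples, the mean of the 9 in a sample ran from -2.09 in 2208L replicate 5 to 1.29 in 2225L replicate 2. List means of other genes below were formed in the same way, whereas the mean of the CD3 genes uses the deposited values. Over the samples Cd28 had the largest SD, 1.66, more than 85.5% of all genes, and Cd4 the smallest, 0.91, more than 64.3%. The Pearson correlation of a gene with the mean of the other 8 was 0.881 for Cd3g, 0.873 for Cd8a, 0.846 for Cd3e, 0.802 for Cd2, 0.792 for Cd3d, 0.735 for Foxp3, 0.667 for Cd28 and 0.632 for Cd4. For Lck it was 0.058, or 0.301 over the 13 samples outside 2225L, against 0.855 within the 8 samples of 2208L. Among pairs, the neighbours Cd3d and Cd3g had the highest correlation, 0.915. Samples share a model, and most share a range of library numbers, within a group, so these coefficients are descriptions over 15 samples that are not independent.

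**Figure D1:**
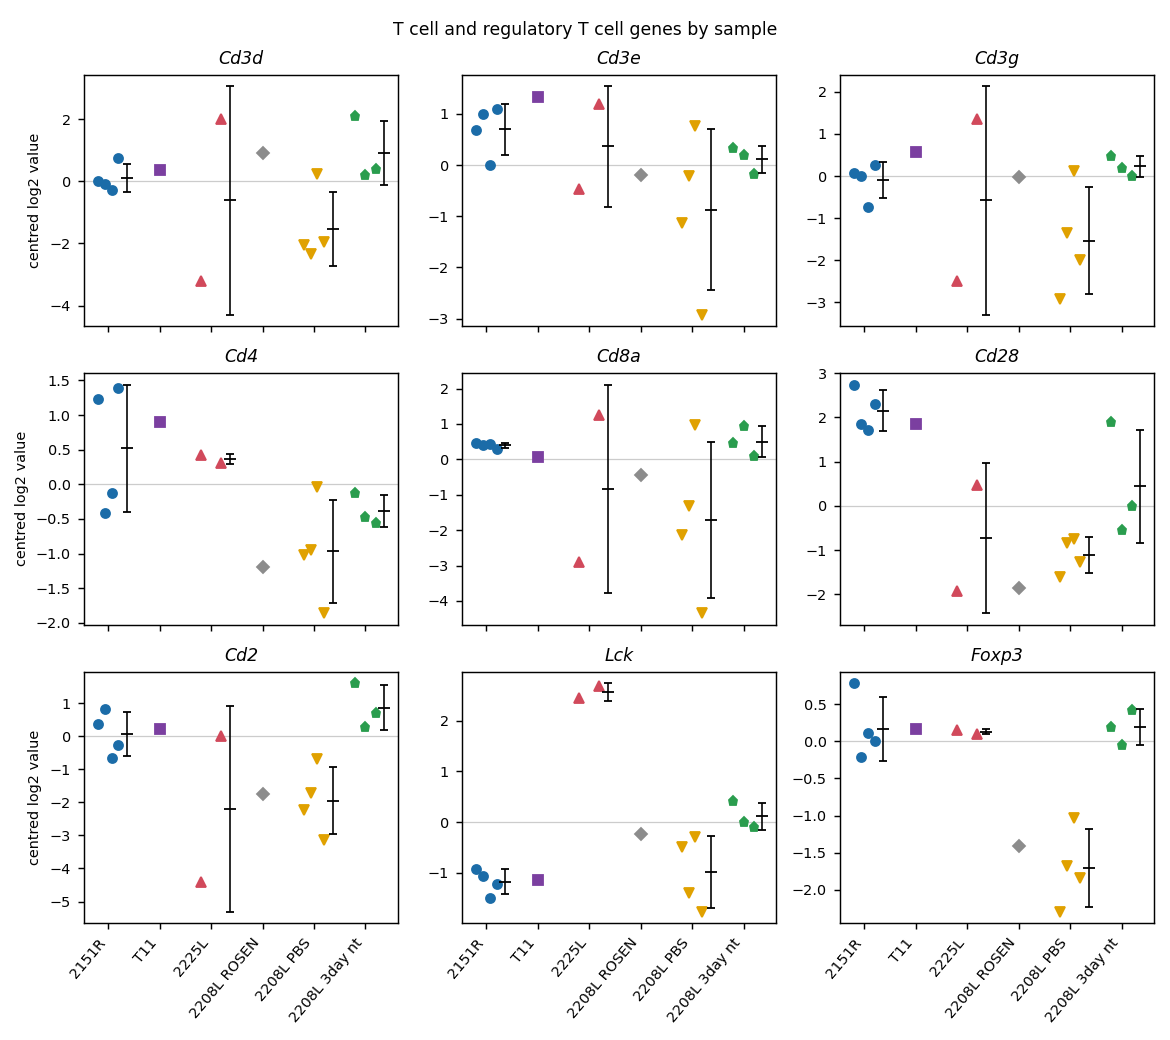
Centred log2 value (vertical axis) of each of the 9 genes in every sample, by model and by subset of 2208L (horizontal axis). Points are samples, and bars beside groups of 2 or more give the mean and SD. In 2208L PBS most genes sit low, the 2 samples of 2225L lie far apart for the CD3 genes, Cd8a and Cd2 but together for Lck, Cd4 and Foxp3, and Cd28 is highest in 2151R.

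The first comparison asks how the 4 models differ, starting with 2151R against 2208L, the models with the most samples. Cd28 and Cd4 were higher in 2151R, and the other 7 genes did not pass the test (limma over all genes, Benjamini-Hochberg adjusted p under 0.05). That is 2 of 9 genes, a share below the 48.8% of all genes that passed in either direction, made up of 26.1% higher and 22.7% lower. The groups overlapped for 9 of 9 genes, while 38.8% of all genes did not overlap. The median difference of the 9 genes was 1.12, beside 0.10 over all genes.

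Cd28, the receptor for the co-stimulatory ligands CD80 and CD86, read 2.75, 1.86, 1.72 and 2.29 in 2151R replicates 1 to 4. In 2208L it read -1.87 in the ROSEN sample, -1.61, -0.84, -0.74 and -1.27 in the PBS samples, and 1.89, -0.55 and 0 in the 3day nt samples. Thus 7 of the 8 samples of 2208L lay below every 2151R sample, and replicate 6 lay among them. The difference was 2.78 (SE 0.62, limma adjusted p 0.00233), and the call held without each sample in turn. Of the ligands of Cd28 and Cd2, 1 of 3 was also higher in 2151R, beside 26.1% of all genes. It was Cd80, with 0.67 ± 0.34 against -0.33 ± 0.80 (SD, n = 4 and 8).

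Cd4, the co-receptor of helper and regulatory T cells, read 1.23, -0.41, -0.12 and 1.39 in 2151R. In 2208L it read -1.19 in the ROSEN sample, -1.02, -0.95, -0.03 and -1.86 in the PBS samples, and -0.13, -0.47 and -0.55 in the 3day nt samples. Replicates 1 and 4 of 2151R stood above all samples of 2208L, and replicates 2 and 3 lay within their range. The difference was 1.30 (SE 0.39, limma adjusted p 0.0146), but the call was lost without 2151R replicate 1 or replicate 4, which left Cd28 as the 1 gene called higher. Without 2208L replicate 5, Lck was called as the 1 gene lower in 2151R.

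The genes that did not pass had wide intervals. Cd8a, the co-receptor of cytotoxic T cells, read 0.47, 0.39, 0.44 and 0.30 in 2151R, the tightest spread of the 9 genes in that model (SD 0.08), whereas 2208L ran from -4.34 to 0.97. Its difference was 1.13 with a 95% interval of -0.95 to 3.20. Cd3d read 0, -0.09, -0.30 and 0.74 in 2151R, Cd3e ran from 0 to 1.11 there, and Cd3g read 0.08, 0.01, -0.73 and 0.27, each within the range of 2208L or less than 1 log2 unit above it. For the CD3 chains the differences were 0.40 for Cd3d, 1.12 for Cd3e and 0.59 for Cd3g, with intervals of -1.69 to 2.49, -0.13 to 2.37 and -1.0 to 2.18. Cd2 read 0.37, 0.82, -0.67 and -0.27 in 2151R and ran from -3.15 to 1.60 in 2208L. The difference was 0.93 for Cd2 (interval -1.06 to 2.92), -0.70 for Lck (-1.46 to 0.06) and 1.13 for Foxp3 (0.09 to 2.18, limma adjusted p 0.0693).

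Other T cell genes were read from lists of the receptor's signalling parts and of T cell identity. Their counts stand beside 26.1% of all genes called higher in 2151R and 22.7% called lower. For the identity and regulatory T cell lists, the shares in both directions were below these. Of 20 signalling genes, 7 were higher and 0 lower in 2151R, led by Txk, a kinase of the Tec family (2.81 ± 0.64 against -0.21 ± 1.09), and Ptpn22, a phosphatase that dampens receptor signals (1.59 ± 0.20 against -1.04 ± 0.79). Of 14 identity genes, 2 were higher and 1 lower: Trbc2, a constant segment of the receptor's beta chain, differed by 3.04, Il2rb, a chain of the interleukin-2 receptor, by 1.83, and the transcription factor Bcl11b by -1.89. Of 9 regulatory T cell genes, Lrrc32, which holds latent TGF-beta on the cell surface, was higher by 1.10, and Tnfrsf18, the receptor GITR, was lower by 3.20 in 2151R (-2.68 ± 0.63 against 0.51 ± 0.35). Foxp3 and Tnfrsf18 thus had opposite signs in this comparison.

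Genes of other leukocytes also differed in this comparison, in which 26.1% of all genes were called higher and 22.7% lower. Of 10 pan-leukocyte genes 6 were higher and 0 lower in 2151R, and the mean of the list ran from 0.38 to 0.65 in 2151R and from -0.52 to 0.43 in 2208L. Of 6 natural killer cell genes 3 were higher and 0 lower, with list means of 1.13 to 1.60 and -2.27 to 1.59, led by the perforin gene Prf1 (3.47) and the receptor gene Ncr1 (2.22). Of 12 macrophage genes 7 were higher, led by Mrc1 (2.28), and 1 was lower, Cd14 (-3.76). Not every list rose. Of 10 dendritic cell genes 1 was higher, Flt3 (3.16), and 3 lower, led by Itgax (-2.30) and Batf3 (-2.28). Of 8 T cell chemokine genes 1 was higher, Ccl21a (3.55), and 5 lower, led by Ccl17 (-3.65) and Cxcl11 (-2.74). Of 6 B cell genes 0 were higher and 0 lower. With the pan-leukocyte mean as a covariate, Cd28 stayed called higher at 1.51 (adjusted p 0.0414), Cd4 did not (0.87, adjusted p 0.147), and Lck was called lower (-1.36, adjusted p 0.00561), while the differences of Cd3d, Cd3e, Cd3g, Cd8a and Cd2 took a negative sign, none of them called. How much of the T cell difference goes with all leukocytes was not tested further.

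**Figure D2:**
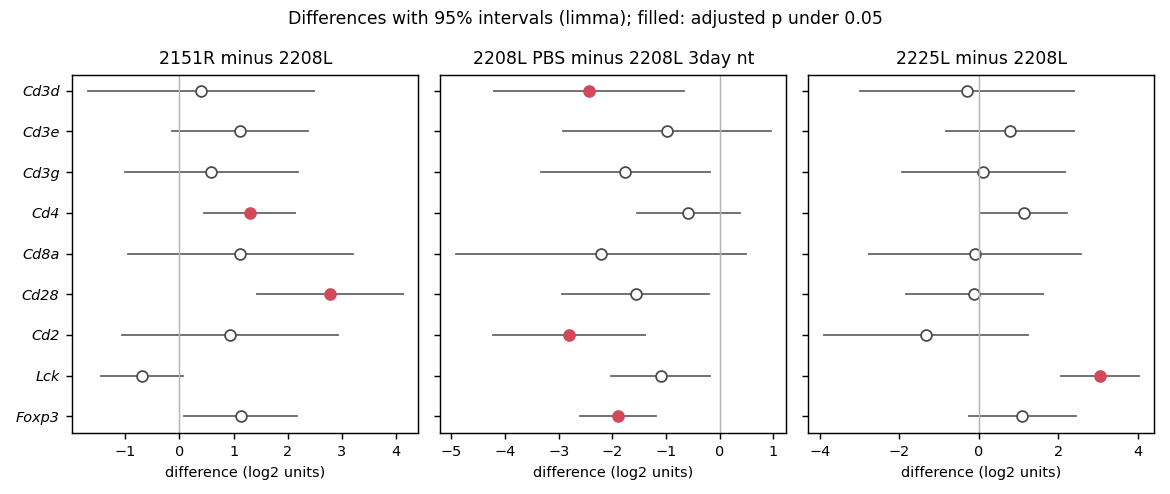
Difference in log2 units with its 95% interval (horizontal axis) for each of the 9 genes (vertical axis) in 3 comparisons. Filled points passed limma's adjusted p under 0.05: Cd4 and Cd28 in 2151R minus 2208L, Cd3d, Cd2 and Foxp3 in PBS minus 3day nt, and Lck in 2225L minus 2208L.

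The second comparison is within 2208L, between the 4 PBS samples and the 3 samples titled 3day nt. Foxp3, Cd2 and Cd3d were lower in the PBS samples, and the difference had a negative sign for 9 of 9 genes. The 3 called genes are a share near the 34.0% of all genes that passed in either direction, and none of the 9 passed as higher, whereas 17.4% of all genes passed as higher and 16.5% as lower. For 4 of 9 genes (Cd28, Cd2, Lck and Foxp3) every PBS sample lay below every 3day nt sample, which held for 23.8% of all genes, while 44.8% did not overlap in either direction. The median difference was -1.76 for the 9 genes and -0.05 over all genes.

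Foxp3, the regulator of regulatory T cells, read -2.30, -1.68, -1.03 and -1.84 in the PBS samples and 0.19, -0.05 and 0.43 in the 3day nt samples. The subsets did not overlap, and the ROSEN sample, at -1.41, lay inside the PBS range. The difference was -1.90 (SE 0.30, limma adjusted p 0.00671). It stayed called without each of the 7 samples in turn, with adjusted p from 0.00931 to 0.0355.

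Cd2, the adhesion receptor, read -2.23, -1.71, -0.70 and -3.15 in the PBS samples and 1.60, 0.27 and 0.71 in the 3day nt samples, again without overlap. The difference was -2.81 (SE 0.60, limma adjusted p 0.0148), and the call was lost without 3day nt replicate 6 (adjusted p 0.0557) or replicate 8 (adjusted p 0.0534). Cd3d read -2.05, -2.34, 0.24 and -1.97 against 2.08, 0.21 and 0.41. The PBS sample at 0.24, replicate 4, stood apart from the other 3 and inside the 3day nt range, and the difference of -2.43 (SE 0.75, limma adjusted p 0.0451) was lost in 5 of the 7 fits that left out 1 sample.

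The same sample had the highest PBS value of 9 of 9 genes. Cd3e read 0.77 in it and -1.12, -0.21 and -2.92 in the other PBS samples, against 0.33, 0.19 and -0.18 in the 3day nt samples. Cd8a read 0.97 in it and -2.15, -1.33 and -4.34 in the others, against 0.47, 0.95 and 0.08. Cd3g read 0.13 in it and -2.91, -1.36 and -1.99 in the others, against 0.48, 0.20 and 0, a difference of -1.76 that did not pass (adjusted p 0.0806). Without replicate 4, 6 of the 9 genes were called lower in PBS. That fit called 4817 of all 17271 genes in either direction, beside 5864 with all samples. Without replicate 6 or replicate 8 of the 3day nt samples 1 of the 9 was called lower. The calls over all genes then fell as well, to 2950 and 2379.

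Lck, the kinase that phosphorylates the CD3 chains, read -0.49, -1.40, -0.30 and -1.77 in the PBS samples and 0.42, 0 and -0.09 in the 3day nt samples. No sample overlapped, yet the difference of -1.10 (SE 0.39) had an adjusted p of 0.0669. Cd28 was also lower in each PBS sample than in any 3day nt sample, with a difference of -1.56 (adjusted p 0.0758). The smallest difference was that of Cd4, -0.58 with a 95% interval of -1.54 to 0.37.

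Genes of the signalling, identity and regulatory T cell lists that passed in this comparison were lower in PBS. Of all genes, 16.5% were called lower and 17.4% higher, and the share of the signalling list that was lower lies near the former. Of 20 signalling genes 0 were higher and 3 lower, among them Lat, the adaptor that LCK and ZAP70 signals reach (-1.18 ± 0.34 against 0.50 ± 0.37), and Prkcq, a kinase downstream of the receptor that skeletal muscle also expresses (-4.19). Of 14 identity genes 0 were higher and 5 lower, led by the receptor segments Trbc2 (-3.06) and Trbc1 (-2.50). Of 9 regulatory T cell genes 0 were higher and 3 lower, led by the co-stimulator Icos (-2.77) and Tnfrsf4, the receptor OX40 (-1.03 ± 0.38 against 0.97 ± 0.54). Of 8 chemokine genes 5 were lower, led by Ccl22 (-2.96) and Ccl17 (-2.45), whose products attract cells with the receptor CCR4.

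Genes of other cell types also differed between PBS and 3day nt. Of 10 dendritic cell genes 6 were lower, of 6 B cell genes 2, of 6 natural killer cell genes 2, and of 10 pan-leukocyte genes 2, a share near the 16.5% of all genes, each of these lists with 0 higher. Of 12 macrophage genes 1 was higher in PBS, Mertk (1.09), and 1 lower, C1qa (-0.71). The mean of the dendritic cell list ran from -1.54 to 0.46 in PBS and from 0.89 to 1.80 in 3day nt. Skeletal muscle genes separated some samples: their list mean was 8.84 and 8.25 in 3day nt replicates 6 and 8, 0.27 in replicate 7 and -4.16 to 1.59 in the PBS samples. Leaving out the samples high in muscle genes left a single 3day nt sample, whose spread is assumed to be that of the others. Foxp3 then differed by -1.66, Cd2 by -2.22 and Cd3d by -1.74, beside -1.90, -2.81 and -2.43 with all samples. Calls from a fit with a single sample in a group are not given. The part of admixed muscle tissue in the difference was not tested. With the pan-leukocyte mean as a covariate, the call of Cd3d was lost (-1.54, adjusted p 0.121). Foxp3 (-1.77, adjusted p 0.0260) and Cd2 (-2.01, adjusted p 0.0253) stayed called lower in that fit, which called 4117 of all genes in either direction.

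Because the subsets of 2208L differed, 2151R was also set against each of them. These comparisons share the 2151R samples. Against PBS, Cd28 (3.27, adjusted p 0.000714), Foxp3 (1.88, SE 0.28, adjusted p 0.000183) and Cd4 (1.49, adjusted p 0.0172) were higher in 2151R, 3 of 9 genes, beside 50.4% of all genes called in either direction and 27.5% higher. Cd28, Cd2 and Foxp3 did not overlap, beside 54.0% of all genes. Without 2208L replicate 4, 7 of the 9 were called higher, while 8100 of all genes were called in either direction, beside 8705 with all samples.

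Against 3day nt, Cd28 was higher in 2151R by 1.71 (adjusted p 0.0377) and Lck lower by 1.29 (difference -1.29, adjusted p 0.00635), 2 of 9 genes beside 54.8% of all genes, made up of 27.7% higher and 27.1% lower. Lck alone of the 9 did not overlap, beside 64.3% of all genes in either direction and 31.8% lower. Foxp3 read 0.79, -0.22, 0.11 and 0 in 2151R, on the level of the 3day nt samples, with a difference of -0.02 and a 95% interval of -0.67 to 0.64. The call of Cd28 was lost without 2151R replicate 1, 2 or 4 or without 2208L replicate 7 or 8, which left 0 genes called higher.

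Foxp3 shares sequence with other annotated genes. Of its 4577 exon bases, 590 overlap exons of Ccdc22 on the opposite strand, 373 those of the transcript Gm36995 and 266 those of Ppp1r3f, and 853 overlap the transcript Flicr on the same strand, which is not analysed here. Whether reads were counted by strand is not given in the sources used here, so reads of Foxp3 and of the genes on the opposite strand could be mixed, and for Flicr counting by strand would not separate them, and the values of Foxp3 are uncertain to that extent. Ccdc22, a gene of endosomal sorting, read -0.67, -0.75, -0.58 and -0.96 in the PBS samples and 0.18, -0.02 and 0 in the 3day nt samples, a difference of -0.79 (adjusted p 0.00731), and its correlation with Foxp3 over the 15 samples was 0.785. Those of Ppp1r3f and Gm36995 were 0.291 and 0.249.

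A neighbour that does not overlap Foxp3 followed it more closely. Syp (chrX:7638471-7653256, plus strand), which encodes a synaptic vesicle protein, had a correlation of 0.925 with Foxp3. It read -1.39, -1.23, -0.67 and -1.57 in the PBS samples, 0.74, -0.07 and 0.07 in the 3day nt samples and -1.52 in the ROSEN sample of 2208L. The difference between PBS and 3day nt was -1.46 (adjusted p 0.0108). Among all genes with an established symbol, those most like Foxp3 were Meaf6 (0.926), Syp, Ppp1r8 (0.902), Exosc3 (0.897) and Taf12 (0.889), none of them in a T cell list.

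**Figure D3:**
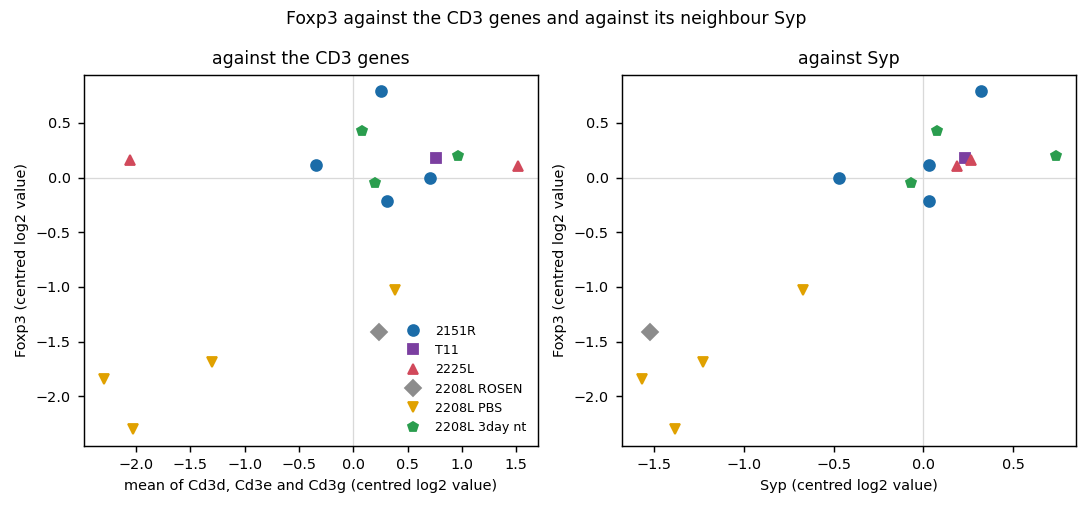
Foxp3 (vertical axes, centred log2 value) against the mean of Cd3d, Cd3e and Cd3g (left) and against Syp (right) in 15 samples, with symbols for the models and the subsets of 2208L. In 2225L Foxp3 is at 0.16 and 0.11 while the CD3 mean is at -2.06 and 1.51, and the PBS and ROSEN samples of 2208L are low for both Foxp3 and Syp.

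In 2225L, Lck was higher than in either of the larger models. It read 2.44 and 2.70 in the 2 samples of 2225L, against -0.92, -1.08, -1.49 and -1.23 in 2151R and -1.77 to 0.42 in 2208L, so no sample of another model came near it. The difference was 3.05 from 2208L (SE 0.45, limma adjusted p 0.000244) and 3.75 from 2151R (SE 0.50, limma adjusted p 4.19e-05), and both calls held without each sample in turn. With the library series as a covariate, the difference from 2208L was 2.95 (adjusted p 0.000902). Both differences use the same 2225L samples.

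Lck was the 1 gene of the 9 called in 2225L against 2208L, beside 32.9% of all genes called in either direction and 15.6% higher, and 2 of 9 genes (Lck and Cd4) did not overlap, beside 31.7%. Cd4 read 0.42 and 0.31 in 2225L, above all 2208L samples, but its difference of 1.14 did not pass (adjusted p 0.101). Against 2151R, Lck was higher and Cd28 lower in 2225L, 2 of 9 genes beside 48.6% of all genes, made up of 22.8% higher and 25.8% lower, and the same pair did not overlap, beside 62.4%. Cd28 read -1.93 and 0.46 in 2225L, below all 2151R samples, a difference of -2.89 (SE 0.88, adjusted p 0.0157). That call was lost without 2225L replicate 1, which left 0 genes lower, and without replicate 2 there were 2.

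The CD3 genes did not follow Lck in 2225L. Lck minus the mean of Cd3d, Cd3e and Cd3g, a log2 ratio of values that are each relative to their own reference, was 4.50 and 1.19 in 2225L, -1.94 to -1.15 in 2151R, -1.91 in T11 and -0.68 to 1.54 in 2208L. Among the genes most like Lck across the 15 samples were Snrpe (0.965), Pfdn2 (0.964), Rnf25 (0.963) and Mlf2 (0.963), none from a T cell list; those most like Cd28 were P2rx6 (0.972), Ptgr2 (0.955), Catip (0.953), Evi2 (0.946) and Traf5 (0.944). Of the 10 nearest genes around Lck in the table, 3 passed limma's adjusted p under 0.05 as higher in 2225L than in 2208L, beside the 15.6% of all genes given above: Marcksl1 (0.78), Hdac1 (0.68) and Tmem234 (0.57), each by less than Lck. Among those that did not pass, Zbtb8b had the greatest difference, 1.15 (adjusted p 0.129).

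**Figure D4:**
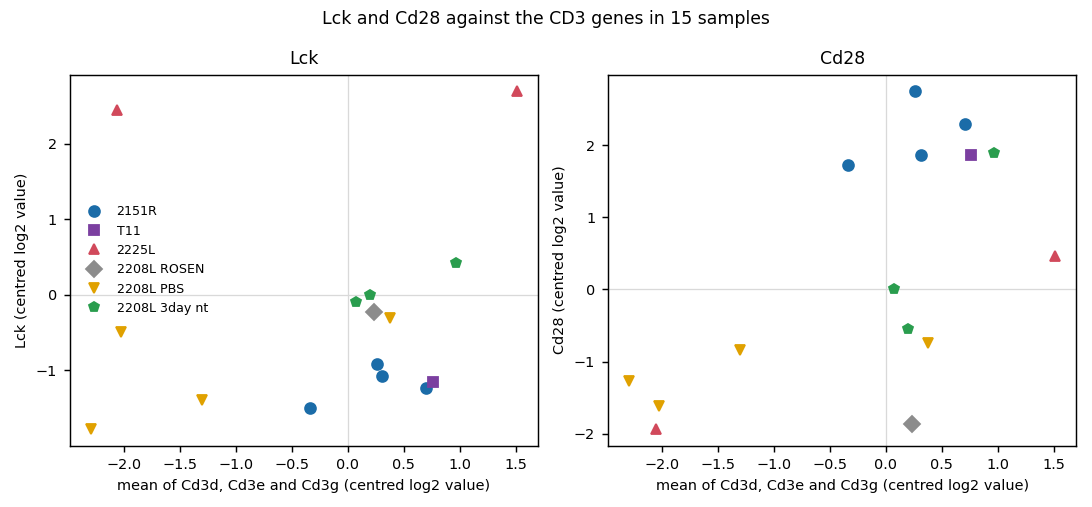
Lck (left) and Cd28 (right), both as centred log2 values on the vertical axes, against the mean of Cd3d, Cd3e and Cd3g on the horizontal axes in 15 samples, with symbols for models and subsets. Both samples of 2225L stand above all others for Lck, at 2.44 and 2.70, and the 2151R samples stand high for Cd28 at CD3 means of -0.34 to 0.70.

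The 2 samples of 2225L differed from each other in most of the genes. Replicate 1 (T-Vivo) was more than 1 log2 unit below replicate 2 (ROSEN) in 6 of 9 genes, beside 18.6% of all genes that far lower and 34.1% that far apart in either direction. Cd3d read -3.21 and 1.99, Cd3g -2.49 and 1.34, and Cd3e -0.47 and 1.20 in replicates 1 and 2. Cd8a read -2.90 and 1.25, and Cd2 read -4.39 and 0. In contrast, Lck, Cd4 and Foxp3 differed by -0.25, 0.11 and 0.05. With 1 sample of each kind there is no replicate check on these differences.

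As a log2 ratio, Cd8a minus Cd4 was -3.32 in replicate 1 and 0.94 in replicate 2 of 2225L, beside -1.09 to 0.80 in 2151R, -2.49 to 1.01 in 2208L PBS and 0.59 to 1.41 in 2208L 3day nt. The mean of the pan-leukocyte list was -1.90 and -0.85 in the samples of 2225L, below all other samples, and that of the natural killer cell list was -1.97 and 0.06. Both values of Foxp3 in 2225L, 0.16 and 0.11, lay within the range of 2151R. Foxp3 minus the CD3 mean ran from -1.64 to 2.21 over the 15 samples.

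The single T11 sample read near the 2151R samples in these genes. It read 0.37 for Cd3d, 1.33 for Cd3e, 0.58 for Cd3g, 0.90 for Cd4, 0.06 for Cd8a, 1.86 for Cd28, 0.22 for Cd2, -1.15 for Lck and 0.17 for Foxp3. None of the 9 values was more than 1 log2 unit from the 2151R mean (0 of 9, beside 25.5% of all genes), and 6 of 9 lay inside the range of 2151R, while 70.7% of all genes lay outside it. From the 2208L mean, 6 of 9 genes differed by more than 1 (38.5% of all genes), the most for Cd28 (2.49). With 1 sample there is no test.

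Outside the set, the genes most like the mean of the 9 across the 15 samples were Nkg7 (Pearson correlation 0.969), a granule gene of cytotoxic T and natural killer cells, the chemokine receptor gene Cxcr3 (0.947), and Cd7 (0.928), a surface protein of T and natural killer cells. Next came Kansl2 (0.921), Ckb (0.896), Got1 (0.895), Borcs7 (0.894) and Cyb5a (0.891), which belong to no list of T cell genes. Within the 8 samples of 2208L, the correlations were 0.981 for Nkg7 and 0.955 for Cxcr3. These coefficients carry no test, and the samples behind them share models and ranges of library numbers.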

How the data were processed

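RNA from 15 mouse mammary tumours was sequenced from poly(A)-selected libraries, per the labels' protocols. The submitters' processing notes name STAR, Salmon and the mm10 build, with no versions or settings, and the normalization between samples and the offset before the logarithm are not given in the sources used here. The authors deposited log2 values for 17271 genes, centred per gene on a median, which is read from the name given to the table; the reference samples are not stated. With no counts in the table, sequencing depth is unknown and no counting interval can be given. An exact 0 is a sample at the reference.

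Samples were grouped by the model and subset in their titles, and no column belonged to another series (0 such columns). Models were compared in 1 limma fit (limma 3.58.1, R 4.3.3) over all 15 samples and all genes, with 1 mean per model. The subsets of 2208L were compared in a fit of their 7 samples, and 2151R with each subset in a fit with 1 mean per subset. P-values were adjusted over all genes by Benjamini-Hochberg, and an adjusted p under 0.05 was called. T11, and the 2 samples of 2225L against each other, were described without a test. Tables were read with Python 3.11.15. Alternatives covered scaling, variance models, sample weights, filters, covariates and left-out samples.

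The genes and lists were chosen with earlier results of these data known. The text names all 9 genes, up to 2 called genes per list with the largest rise and 2 with the largest fall in 2 of the comparisons, the 8 genes most like the mean of the 9 and the 5 most like Foxp3. The likeness to Lck and Cd28, the ratio of Lck to the CD3 genes and the neighbours of Lck and Foxp3 were added after values had been seen. Gene positions are from GENCODE M21, and promoters and distances between starts from RefSeq GRCm38.p6, both on the build that mm10 names.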

Additional observations from a re-analysis of the deposited data

Results flagged for a closer look

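Cd3d in the PBS samples of 2208L had 1 sample far from the others: 2208L replicate 4 read 0.24, and the other 3 PBS samples read from -2.34 to -1.97. Its gap to the nearest of them exceeded Dixon's 95% critical value. This was 1 of 42 groups of values tested, and chance alone gives about 1 in 20, or 2.1.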

How the results depend on the processing

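No paired analysis was run, since the titles link no sample of a group with a sample of another group. Lck in 2225L, Cd28 in 2151R against all of 2208L or PBS, and Foxp3 in 2151R against PBS kept their calls under each alternative run. Other counts moved, and the cause was not tested. With sample weights, 4 of the 9 passed as higher in 2151R against 2208L, 7 against PBS, and 6 lower in PBS than in 3day nt. Of all 17271 genes, those fits called 11369, 11676 and 11692 in either direction, beside 8434, 8705 and 5864 in the main fits. For PBS against 3day nt, quantile normalization gave 5 lower, with 7008 of all genes called. Without samples high in muscle genes, 2 were higher in 2225L than in 2208L, with Foxp3 added, and 5789 of all genes were called, beside 5687. That filter left 1 sample of 3day nt, so its counts against 3day nt are not given. With the fit kept to samples whose titles say NT, nt or PBS, 1 was higher in 2151R than in 2208L, with 6435 of all genes called. With the pan-leukocyte covariate 1 was higher and 1 lower in that comparison, with 8105 called. Fits without 1 sample also changed the calls over all genes, as in PBS against 3day nt: 4817 without 2208L replicate 4 and 2379 without replicate 8. Leaving out 1 sample gave 1 to 3 higher and 0 to 1 lower in 2151R against 2208L, 1 to 6 lower in PBS, 2 to 7 higher in 2151R against PBS, 0 to 1 higher in 2151R against 3day nt, and 0 to 2 lower in 2225L against 2151R.

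Signs turned only for differences that were not called. With the pan-leukocyte covariate, 2151R minus 2208L was -1.73 for Cd3d, -0.069 for Cd3e, -0.90 for Cd3g, -1.07 for Cd8a and -1.34 for Cd2. For 2225L minus 2208L, Cd28 was 0.17 with quantile normalization, 0.13 with weights and 0.41 without muscle-high samples, Cd3d 0.28 with weights and 0.22 without them, Cd8a 0.23 without them, and Cd3g -0.59 with the library prefix as a covariate. For 2225L minus 2151R, Foxp3 was 0.035 with median centring and 0.0082 with quantile normalization, which also gave 0.051 for Lck in 2151R minus PBS. For 2151R minus 3day nt, Foxp3 was 0.031 with weights and 0.24 without muscle-high samples, where Cd3d was 0.0039 and Cd2 0.033. Leaving out 1 sample moved 2225L minus 2208L from -2.90 to 2.30 for Cd3d, -0.050 to 1.62 for Cd3e, -1.81 to 2.03 for Cd3g, -2.18 to 1.98 for Cd8a, -1.31 to 1.09 for Cd28 and -3.53 to 0.87 for Cd2. It moved 2225L minus 2151R from -3.30 to 1.90 for Cd3d, -1.17 to 0.50 for Cd3e, -2.40 to 1.44 for Cd3g, -0.46 to 0.13 for Cd4, -3.30 to 0.85 for Cd8a and -0.17 to 0.17 for Foxp3. Lck in 2151R minus PBS ran from -0.45 to 0.038, and in 2151R minus 3day nt Foxp3 ran from -0.22 to 0.11 and Cd8a from -0.31 to 0.13.

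Depth is unknown, so how far low counts limit any of these genes cannot be read from the table.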

Other observations

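Skeletal muscle genes were also high in 1 sample of 2151R: the list mean was 5.50 in replicate 3 and -3.90 to -3.60 in the other 3. In that sample Cd3d, Cd3e, Cd3g, Cd28, Cd2 and Lck had the lowest value of the 4. The ROSEN sample of 2208L had a muscle list mean of -4.95 and read 0.92 for Cd3d, -0.20 for Cd3e, -0.03 for Cd3g, -0.45 for Cd8a, -1.75 for Cd2 and -0.23 for Lck, so Cd3d lay inside the 3day nt range and Cd3e and Cd3g just below it, while Foxp3 (-1.41), Cd4 (-1.19) and Cd2 lay inside the PBS range and Cd28 (-1.87) below it.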
